A study of Mus musculus with 2 samples.

Results

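The oligodendrocyte lineage of the brainstem was followed through 10 genes chosen by name, out of 25556 genes in the count table. They were the precursor genes *Pdgfra*, *Cspg4*, *Vcan*, *Ptprz1* and *Sox6*, the genes of committed and maturing cells *Gpr17*, *Bcas1* and *Enpp6*, and the lineage transcription factors *Sox10* and *Olig2*. All 10 were present, with 280 to 16957 unique molecular identifier (UMI) counts each over both libraries. The RNA came from nuclei of flash-frozen brainstem of 1 WT and 1 HET mouse, both female, at postnatal day 41, and every difference between the genotypes is therefore a difference between 2 libraries with no replicate. The HET mouse carried the Scn1aA1783V/WT missense knock-in, a model of Dravet Syndrome, made by crossing a floxed *Scn1a* male with a Sox2-Cre female. The WT mouse was a littermate with intact *Scn1a*. Both were on the C57Bl6 background, were untreated, and were perfused with saline after euthanasia. Sox2-driven Cre acts in the early embryo, so the allele was not limited to a cell type, and each library was made from the tissue of a single animal.

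Oligodendrocyte precursors carry the PDGF receptor alpha (*Pdgfra*) and the proteoglycan NG2 (*Cspg4*) and go on dividing in the adult brain and brainstem. When a precursor commits, it shuts these genes off, passes through a brief stage marked by the receptor *Gpr17*, and then makes myelin. *Olig2* and *Sox10* are transcription factors that hold the lineage together from precursor to myelinating cell, and they are present at every stage of it.

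The libraries held 9259 WT and 9022 HET nuclei, with a median of 5456 and 5646 UMIs per nucleus. The levels below are UMIs of a gene per 1000000 UMIs (CPM) summed over a group of nuclei, with exact Poisson 95% intervals in parentheses. These intervals, and those of shares and ratios, cover counting error only, and levels are compared between groups of nuclei for the same gene, not between genes. The groups are the 16 deposited clusters with the deposited finer splits. The deposited oligodendrocyte cluster (oligo) matched its name, with a summed level of 10 oligodendrocyte markers of 13759 CPM against 635 CPM in the largest neuronal cluster, neuron.1. The 2 libraries shared 23 cell barcodes. *Scn1a* itself had 26726 UMIs in WT and 27823 in HET, and the counts do not separate the alleles. The HET library had a lower deposited doublet score (median 0.116 against 0.169), a higher mitochondrial share (median 0.458% against 0.343%) and a lower ribosomal share (0.407% against 0.696%). Some finer clusters came almost wholly from 1 library, among them oligo subclusters 6 (39 WT and 827 HET nuclei) and 8 (825 WT and 35 HET nuclei), so that cluster and library cannot be told apart there.

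In genome build GRCm38 (mm10), the genes lay on 10 different chromosomes. *Pdgfra* is at chr5:75152292-75198215 and *Cspg4* at chr9:56865033-56899870, both on the plus strand. *Olig2* is at chr16:91225457-91228677 and *Enpp6* at chr8:46986887-47096762, also on the plus strand. *Sox10* is at chr15:79154908-79165240 and *Bcas1* at chr2:170346991-170427845, on the minus strand. *Vcan*, *Sox6*, *Gpr17*, *Bcas1* and *Enpp6* overlap other genes of the table annotated on the opposite strand. The methods name recommended Cell Ranger settings without naming strand, so reads shared between such genes cannot be traced here. Promoter sequence from RefSeq (GRCm38.p6) was matched for 7 of the 10 genes. The 4 below are shown because *Pdgfra*, *Cspg4* and *Olig2* were all high in the same 50 nuclei, whereas *Enpp6* was low there and highest in another group. Each is the plus strand 5′ to 3′, from 250 to 101 bases before the RefSeq start, outside any annotated gene. Capitals mark E-boxes (CANNTG, the motif class bound by basic helix-loop-helix factors such as OLIG2) and the SOX core motifs ACAAAG and ACAATG, searched on both strands. No capitals of 2 motifs overlap.

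Pdgfra, chr5:75152001-75152150: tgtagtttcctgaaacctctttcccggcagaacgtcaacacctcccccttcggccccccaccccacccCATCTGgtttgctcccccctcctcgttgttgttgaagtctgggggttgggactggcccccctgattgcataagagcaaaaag
Cspg4, chr9:56864854-56865003: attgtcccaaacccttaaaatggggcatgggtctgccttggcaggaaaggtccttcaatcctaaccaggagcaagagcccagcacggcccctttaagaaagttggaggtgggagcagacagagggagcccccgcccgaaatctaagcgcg
Olig2, chr16:91225300-91225449: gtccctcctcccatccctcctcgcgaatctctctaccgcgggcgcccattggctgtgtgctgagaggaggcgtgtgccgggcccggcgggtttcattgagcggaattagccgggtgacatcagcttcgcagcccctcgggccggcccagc
Enpp6, chr8:46986637-46986786: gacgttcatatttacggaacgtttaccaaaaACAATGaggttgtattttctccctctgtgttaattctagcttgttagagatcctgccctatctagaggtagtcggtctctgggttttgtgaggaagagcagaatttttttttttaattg

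The *Pdgfra* window held 1 E-box and the *Enpp6* window 1 ACAATG, and those of *Cspg4* and *Olig2* held none of the 3 motifs. Among 32493 promoter windows of the same length, 49.2% held an E-box, 10.4% ACAAAG and 6.40% ACAATG. G and C made up 58% of the *Pdgfra* window, 56.7% of the *Cspg4* window, 68% of the *Olig2* window and 38% of the *Enpp6* window.

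The precursor genes were high together in 50 nuclei that the deposited names place among ependymal cells, and 47 of these nuclei were WT. This group, subcluster 32 of the deposited cluster epend.1, is called precursor-like here from 10 fixed markers of precursors, whose summed level was 14374 CPM against 2478 CPM in neuron.1 and 1392 CPM in astrocytes. The name ependymal did not hold for it. Its 6 ependymal markers summed to 46.0 CPM, against 2729 CPM in subcluster 23, which holds the other 124 nuclei of epend.1, and 3 of the 6 were at 0. The deposited reference label called 44 of the 47 WT nuclei and all 3 HET nuclei neurons, although 8 neuronal markers summed to 2531 CPM there against 14056 CPM in neuron.1. The nuclei were shallow, with a median of 2003 UMIs in WT, and their median doublet score was 0.312 in WT. The WT median was 0.304 in subcluster 23, but 0.105 in the oligo cluster and 0.169 over the whole library. In the group, 15 of the 47 WT and 2 of the 3 HET nuclei had scores in the top 5% of their library. The deposited clusters were made from these counts, so the levels that follow are a description of the group and not a test.

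*Pdgfra*, the receptor for the mitogen PDGF-A, had 83 UMIs in the 47 WT nuclei, a level of 816 CPM (650 to 1012), and 78.7% of the nuclei had at least 1 UMI. *Cspg4* had 37 UMIs (364 CPM, 256 to 502) in 55.3% of them. *Vcan*, which encodes the matrix proteoglycan versican, had 112 UMIs (1102 CPM, 907 to 1326). *Pdgfra* and *Vcan* were thus at their highest level of any group here, with all other nuclei of both libraries together at 4.76 CPM for *Pdgfra* and 16.8 CPM for *Vcan*. *Ptprz1*, a receptor phosphatase that binds pleiotrophin, stood at 1574 CPM (1339 to 1837), and *Sox6*, a factor that holds back differentiation, at 1033 CPM (845 to 1250). *Gpr17* had 21 UMIs there, a level of 207 CPM (128 to 316). *Olig2* had 29 UMIs (285 CPM, 191 to 410), and *Sox10* 49 UMIs (482 CPM, 357 to 637), both above their levels in the whole oligo cluster. *Enpp6*, a phosphodiesterase of newly formed oligodendrocytes, had only 5 UMIs in these WT nuclei (49.2 CPM, 16.0 to 115). A WT nucleus of the group carried UMIs of a median of 6 of the 10 genes, with a range of 3 to 9, and 39 of the 47 carried at least 5.

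**Figure D1:**
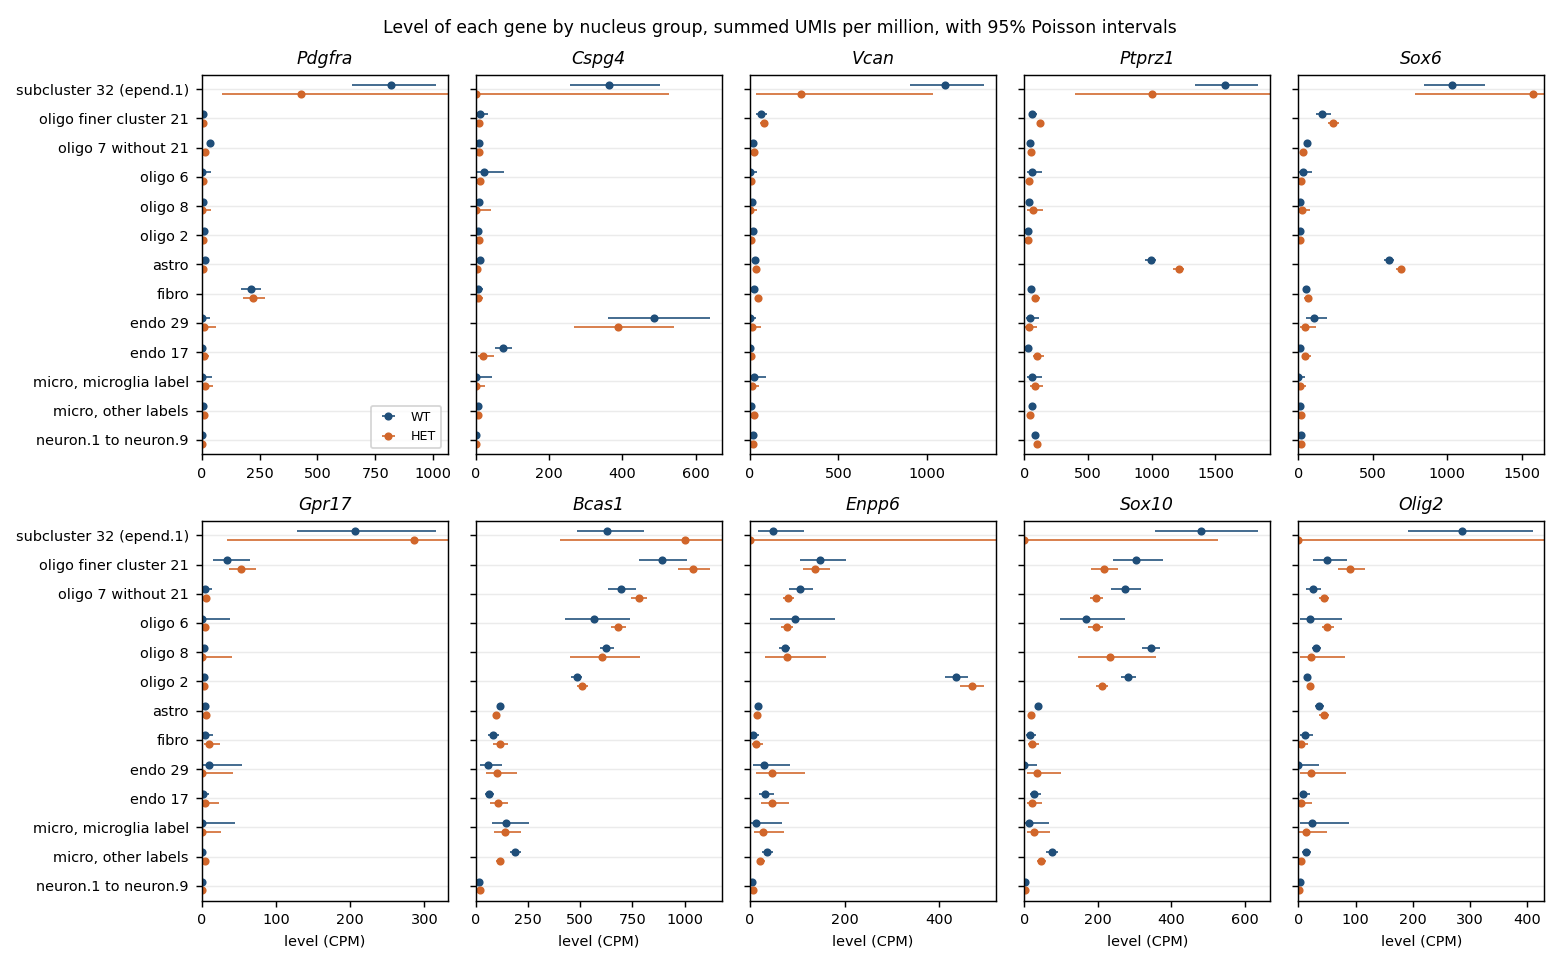
Level of each of the 10 genes in CPM (x axis, linear, from 0) in 13 groups of nuclei (y axis), with WT in blue and HET in orange and exact Poisson 95% intervals as bars. *Pdgfra*, *Vcan*, *Gpr17* and *Olig2* stand far higher in subcluster 32 than elsewhere, *Cspg4* is high in subcluster 32 and endo 29, and *Enpp6* is highest in oligo 2. The HET points of subcluster 32 rest on 3 nuclei, and some of their intervals run past the edge of the panel.

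The 3 HET nuclei of the group held 1865, 2558 and 2573 UMIs and carried UMIs of 3 or 4 of the 10 genes. *Sox6* was seen in all 3, with 11 UMIs in total. *Pdgfra* had 3 UMIs, all in a single nucleus, and *Gpr17* had 2 and *Bcas1* 7, all in another. *Cspg4*, *Enpp6*, *Sox10* and *Olig2* had no UMI, but in so few nuclei a count of 0 allows a level of up to 429 CPM, so that for *Cspg4*, *Enpp6* and *Olig2* a lower level than in WT was not detectable at this depth. As a share of nuclei, the group made up 0.508% (0.373 to 0.674, exact Clopper-Pearson) of the WT library and 0.0333% (0.00686 to 0.0971) of the HET library. Without the 5% of nuclei of each library with the highest doublet scores, 32 WT nuclei and 1 HET nucleus were left. The lowest score left out was 0.333 in WT and 0.304 in HET, so the 2 libraries were not cut at an equal score. The median score of the group's WT nuclei, 0.312, lies between these limits. Among nuclei with at least 2000 UMIs, the group was 0.281% of WT (24 nuclei) and 0.0234% of HET (2 nuclei). Nuclei of a cluster that is almost wholly of 1 library may mark that library rather than a cell type of the animal.

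A list of 20 other precursor genes, none of them among the 10, was highest in the same group, though it includes the 10 markers from which the group was named. Compared over 14 groups of nuclei, 15 of the 20 had their highest level in subcluster 32. These include all 10 naming markers, among them *Lhfpl3* (4077 CPM), *Tnr* (3028 CPM), which encodes tenascin-R, and *Neu4* (451 CPM), a sialidase. The rest of the 15 were *Epn2* (1077 CPM), *Sox8* (202 CPM), *Susd5* (120 CPM), *Rlbp1* (6 UMIs) and *Sstr1* (3 UMIs). Other genes of the list peaked elsewhere, with *Nkx2-2* highest in oligo subcluster 8, *Lrrn1* in oligo subcluster 2, *Gpnmb* in astrocytes and *Sox5* in endo subcluster 29. Of 10 genes of cell division, 8 were highest in subcluster 32, including *Top2a* at 73.6 CPM and *Mki67* at 27.6 CPM, but each of these rests on few UMIs (8 and 3). *Cenpf* had 8 UMIs, *Cdk1* and *Nusap1* 3 each, and *Birc5* 2. *Ccnb1* and *Ube2c* had 1 UMI each, which is a level of 9.20 CPM in so small a group. The share of all genes highest in this group was not taken.

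UMIs of both *Pdgfra* and *Cspg4* in the same nucleus, taken here as a sign of a precursor, were found in 35 WT nuclei (0.378%, 0.263 to 0.525) and 12 HET nuclei (0.133%, 0.0687 to 0.232). Of the 35 WT nuclei, 24 lay in subcluster 32. Outside it, the shares were 0.119% (11 nuclei) in WT and 0.133% (12 nuclei) in HET, and their intervals overlap. Leaving out the high doublet scores over all nuclei, from 0.333 in WT and 0.304 in HET, gave 0.284% in WT and 0.0583% (5 nuclei) in HET. The WT nuclei with both genes were shallow (median 2348 UMIs), whereas the HET nuclei with both were deep (median 8356.5 UMIs), and 2 low genes are more often seen together in a deep nucleus. Thinned to 1000 UMIs per nucleus, which left out no nucleus, the expected shares were 0.113% in WT and 0.0108% in HET. A looser rule, at least 4 of the 5 precursor genes, gave 61 WT and 28 HET nuclei, of which 26 and 27 lay outside subcluster 32. As a background, both genes were seen in 0.049% of the WT nuclei of the neuronal clusters (3 of 6118, median 7729 UMIs) and 0.0556% of the HET ones (3 of 5393, median 8390 UMIs).

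**Figure D2:**
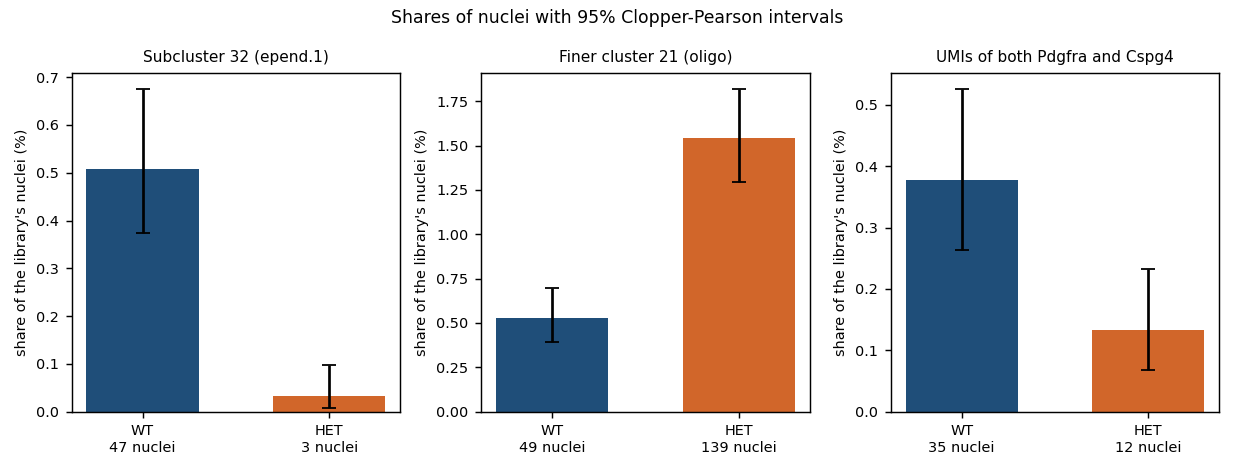
Share of each library's nuclei (y axes, percent, from 0) in subcluster 32 of epend.1, in finer cluster 21 of the oligo cluster, and with UMIs of both *Pdgfra* and *Cspg4*. Bars are the WT and HET libraries with exact Clopper-Pearson 95% intervals and the number of nuclei under each. Subcluster 32 was WT in 47 of 50 nuclei, and finer cluster 21 was HET in 139 of 188.

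A second group, inside the oligo cluster, carried the genes of cells between precursor and mature oligodendrocyte, and 139 of its 188 nuclei were HET. This finer cluster 21, a part of oligo subcluster 7, is described by its leading genes. Against the other oligo nuclei, these were *Prom1* (126 against 1.25 CPM), *9630013A20Rik* (1634 against 18.2 CPM), *Kank1*, *Nckap5*, *Ptpro* and *Bmp4*, with *Tnr* (854 against 51.1 CPM) and *Man1a* (602 against 36.3 CPM). Of 21 measured genes of a fixed list of committed and newly formed cells, 11 had their highest level of 14 groups here, though *Casr* did so on 2 UMIs. They included *Tcf7l2* (353 CPM), a transcription factor of the Wnt pathway that is known to act at this step, *Nfasc* (1735 CPM), a cell adhesion protein of the axon contact, and *Tns3* (421 CPM). Of 20 mature genes, 6 were also highest here, among them *Mbp*, *Mag* and *Opalin*, while *Hapln2* was at 55.4 CPM against 569 CPM in oligo subcluster 2. The share of all genes highest in this finer cluster was not taken, so these 2 counts have no background beside them.

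*Gpr17* had 9 WT and 36 HET UMIs in finer cluster 21, at 34.2 and 53.3 CPM, and 48.0 CPM (35.0 to 64.2) over both. In the other oligo nuclei it was at 3.05 CPM in WT and 4.71 CPM in HET. The group held 16.1% of all *Gpr17* UMIs, with 0.69% of all UMIs. *Pdgfra* was nearly absent, with 5 UMIs in the 188 nuclei (5.33 CPM), and *Cspg4* had 9 (9.59 CPM). *Sox6* stood at 160 CPM in WT and 231 CPM in HET, *Vcan* at 60.9 and 77.0 CPM, and *Ptprz1* at 64.7 and 124 CPM. Each of these was higher than in the rest of the oligo cluster, where *Sox6* was at 17.6 and 18.6 CPM. They came from few nuclei. Only 25 of the 188 nuclei had a *Sox6* UMI, and 92 of the 156 HET *Sox6* UMIs were in 7 nuclei with doublet scores in the top 5%, without which the levels were 131 CPM in WT and 106 CPM in HET, the opposite direction. *Bcas1*, a gene of early myelinating cells, was at its highest level of all groups, 1000 CPM (937 to 1066) over both libraries. *Olig2* was at 49.4 and 90.3 CPM and *Sox10* at 304 and 216 CPM. Finer cluster 21 was 0.529% (0.392 to 0.699) of all WT nuclei, against 1.54% (1.30 to 1.82) in HET. Of the oligo and subcluster 32 nuclei together it was 2.70% in WT and 5.83% in HET. Of the 8 genes with at least 20 UMIs in it, 6 were higher in HET, beside 44.7% of all genes (median log2 ratio 0.44, all genes −0.07). Of the 8, 3 were past 1.5-fold and higher, *Ptprz1*, *Gpr17* and *Olig2*, beside 13.8% of all genes higher and 18.7% lower. Removing the nuclei with the highest doublet scores left 48 WT and 132 HET nuclei, in which *Ptprz1* (65.3 and 64.4 CPM) and *Gpr17* (30.7 and 39.6 CPM) were no longer past 1.5-fold, while *Olig2* was at 49.9 and 79.2 CPM. The rest of oligo subcluster 7 was also mostly HET, with 84 WT and 591 HET nuclei.

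*Enpp6* did not peak with *Gpr17*. Its level was 436 CPM in WT and 469 CPM in HET in oligo subcluster 2, against 148 and 138 CPM in finer cluster 21 and 72.9 to 105 CPM in the other oligo subclusters. Subcluster 2 had similar numbers of nuclei from both libraries (768 WT and 789 HET) and was also highest for the mature genes *Hapln2*, *Klk6* (145 CPM), *Trf* and *Ugt8a*. *Opalin* was at 46.5 CPM there, against 304 to 520 CPM in the other oligo subclusters.

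**Figure D3:**
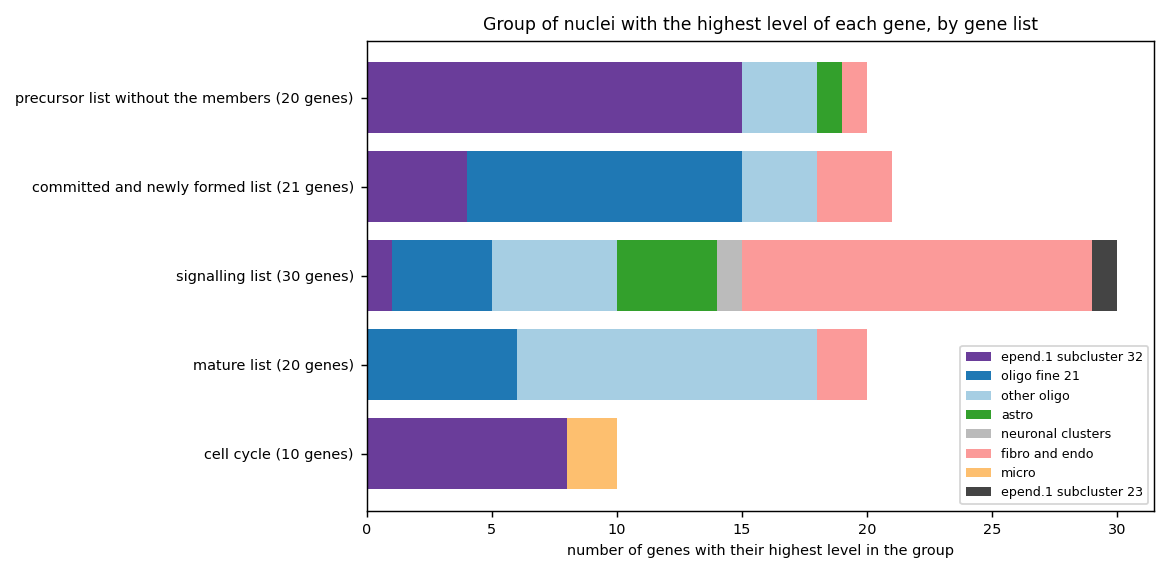
Number of genes (x axis) of each fixed list (y axis) whose highest level of 14 groups of nuclei fell in the group shown by the colour. The precursor list was highest in subcluster 32 for 15 of 20 genes, which include the 10 markers that named the group. The committed and newly formed list was highest in finer cluster 21 for 11 of 21, and the mature list in the oligo groups for 18 of 20. The share of all genes highest in each group was not taken.

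Outside the lineage, *Pdgfra*, *Cspg4*, *Ptprz1* and *Sox6* were also high in other cells, and *Olig2* was counted in astrocytes. *Pdgfra* was at 211 CPM (WT) and 222 CPM (HET) in the fibroblast cluster, where 31.6% of nuclei had a UMI, and the cluster held 25.9% of all *Pdgfra* UMIs with 0.64% of all UMIs. *Cspg4* was at 485 CPM in WT and 388 CPM in HET in endo subcluster 29, and at 73.3 and 20.9 CPM in endo subcluster 17. The 8 pericyte markers, such as *Rgs5* and *Kcnj8*, summed to 12181 CPM in subcluster 29, and the *Cspg4* interval over both libraries (351 to 546 CPM) overlaps that of subcluster 32 (240 to 469 CPM). *Ptprz1* and *Sox6* were high in astrocytes, at 992 and 1212 CPM for *Ptprz1* and 609 and 685 CPM for *Sox6*. *Sox6* was also at 552 CPM in the ependymal subcluster 23, and *Ptprz1* at 311 CPM. *Olig2* was at 35.9 CPM in WT and 44.6 CPM in HET astrocytes, not below its level in the oligo cluster (24.1 and 40.7 CPM). Over both libraries it was at 40.7 CPM in astrocytes, against 267 CPM in subcluster 32 and 78.9 CPM in finer cluster 21. Astrocytes held 20.3% of its UMIs, with 2114210 of 70301390 UMIs of all genes in WT and 2602511 of 66176778 in HET.

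Low levels were also counted in other cell types. In the neuronal clusters, *Bcas1*, *Sox10* and *Enpp6* stood at 0.64% to 3.12% of their oligo level, and the myelin gene *Mbp* at 3.51% and 3.86%. The part of free RNA in these levels was not tested. In the smaller cluster neuron.5 these shares were higher, from 2.10% (*Sox10*, WT) to 17.7% (*Bcas1*, HET), beside 12.4% and 17.7% for *Mbp*. *Ptprz1* in neuronal clusters was at 8.42% (WT) and 8.59% (HET) of its astrocyte level, while the astrocyte genes *Slc1a2*, *Gja1* and *Aqp4* were at 1.34% to 2.59% of theirs. *Vcan* was at 16.3 CPM in the neuronal clusters, near its 16.8 CPM over all nuclei outside subcluster 32. It was at 27.1 CPM (24.1 to 30.4) in neuron.1 subcluster 5. The neuronal clusters held 76.1% of its UMIs, but also most UMIs of all genes. These were 59282694 of 70301390 UMIs in WT and 53272561 of 66176778 in HET.

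The microglia cluster (micro) was split by the deposited reference label. Its 108 nuclei labelled microglia held low counts of all 10 genes, with *Cspg4* and *Gpr17* at 0 UMIs and *Bcas1* at 142 CPM. The other 297 nuclei were of 2 main kinds. In micro subcluster 28, where most nuclei were labelled oligodendrocytes, *Bcas1* was at 522 CPM and *Sox10* at 215 CPM. Its profile was mixed, with oligodendrocyte markers at 9946 CPM and microglia markers at 2335 CPM, and *Itgam*, *P2ry6*, *Ikzf1* and *Irf8*, genes of microglia and other myeloid cells, were among its leading genes. In subcluster 18, labelled neurons throughout, they were at 21.7 and 1.97 CPM. Over the nuclei with other labels, the WT and HET levels were 188 and 114 CPM for *Bcas1* and 74.3 and 44.8 CPM for *Sox10*, while the 10 oligodendrocyte markers summed to 3695 and 2617 CPM, and their part in the result was not tested. Of the 7 genes with at least 20 UMIs there, 3 were higher and 4 lower in HET, with a median log2 ratio of −0.34 (all genes −0.08, with 42.2% higher). Past 1.5-fold were 1 higher gene (*Vcan*) and 3 lower genes (*Bcas1*, *Sox10* and *Enpp6*), beside 9.68% of all genes higher and 17.9% lower. *Vcan* had 6 WT and 31 HET UMIs (log2 ratio 2.05), but 27 of the 31 HET UMIs were in 16 nuclei with doublet scores in the top 5%, and without those nuclei the ratio was −0.55.

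Over all nuclei, the HET library had more *Bcas1*, *Olig2*, *Enpp6*, *Ptprz1* and *Sox6* and less *Pdgfra* and *Cspg4* than the WT library. The log2 ratio of HET over WT CPM was −0.55 (−0.77 to −0.33) for *Pdgfra*, with 447 UMIs in WT and 288 in HET. It was −0.50 (−0.78 to −0.22) for *Cspg4*, with 267 and 178 UMIs. Without subcluster 32 these ratios were −0.27 (−0.50 to −0.04) and −0.28 (−0.57 to 0.00), and without the high-score nuclei they were −0.93 and −0.57. *Ptprz1* went from 109 CPM in WT to 140 CPM in HET (log2 0.36, 0.31 to 0.40) and *Sox6* from 41.0 to 50.7 CPM (0.31, 0.24 to 0.38). *Bcas1* went from 69.2 to 105 CPM (0.60, 0.55 to 0.65), *Enpp6* from 26.0 to 34.1 CPM (0.39, 0.30 to 0.48) and *Olig2* from 5.78 to 8.19 CPM (0.50, 0.32 to 0.69). *Vcan* (−0.08), *Sox10* (−0.06) and *Gpr17* (0.29, −0.05 to 0.64) did not differ beyond counting error. Of the 10 genes, 6 were higher and 4 lower in HET, and the median log2 ratio was 0.30, where the median over 21997 genes was −0.09 and 41.1% were higher. Past 1.5-fold was 1 gene (*Bcas1*), a share of the members near the background of 10.9% of all genes higher and 15.3% lower in HET.

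The makeup of the libraries differed. The oligo cluster was 19.1% of the WT nuclei and 26.4% of the HET nuclei. With every deposited cluster given the same weight in both libraries, the log2 ratio of *Bcas1* fell to 0.20, that of *Olig2* to 0.20 and that of *Enpp6* to −0.07, whereas *Sox10* stood at −0.51. *Pdgfra* (−0.58), *Cspg4* (−0.38), *Ptprz1* (0.30) and *Sox6* (0.22) moved less.

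**Figure D4:**
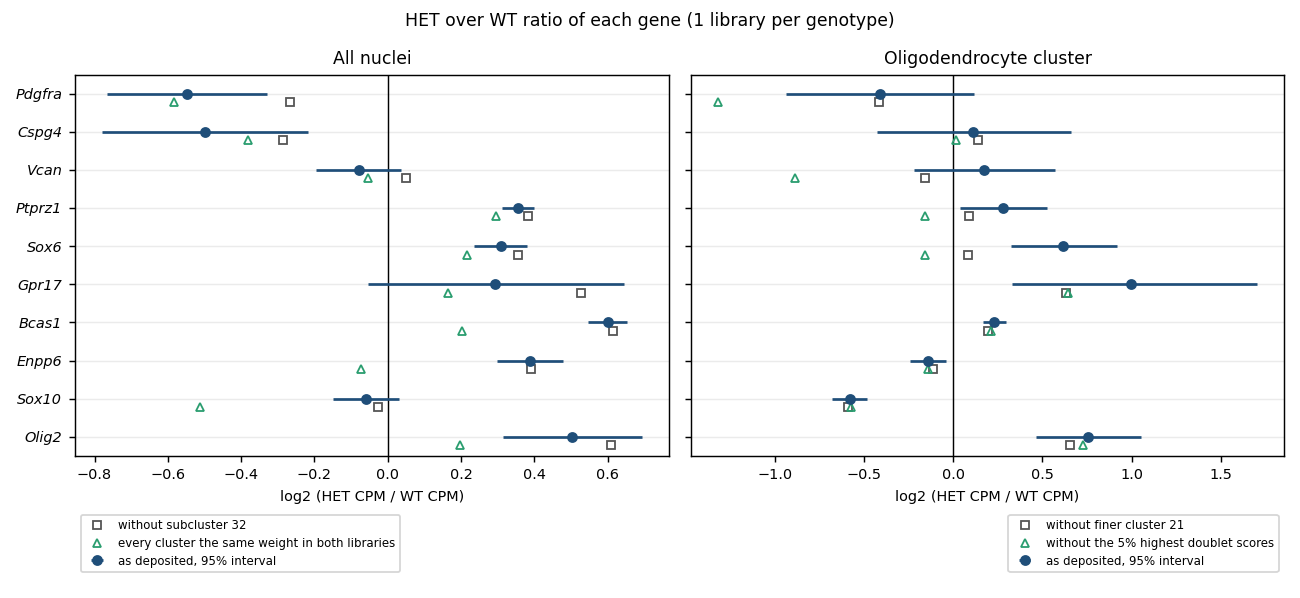
Log2 ratio of HET over WT CPM (x axes) of each gene (y axis) over all nuclei and in the oligo cluster, as filled circles with exact conditional 95% intervals. Open squares leave out subcluster 32 (left) or finer cluster 21 (right), and open triangles give every cluster the same weight (left) or leave out the 5% of nuclei with the highest doublet scores (right). *Sox10* and *Olig2* keep opposite signs in the oligo cluster in all 3, whereas *Sox6* and *Ptprz1* change sign without the high-score nuclei.

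Within the oligo cluster, *Sox10* was lower and *Olig2* higher in HET. *Sox10* had 1772 UMIs in WT and 1602 in HET, or 303 and 203 CPM (log2 −0.58, −0.68 to −0.48). It was lower in HET in subcluster 2 (282 and 212 CPM), in finer cluster 21 (304 and 216 CPM) and in the rest of subcluster 7 (275 and 195 CPM). In subclusters 6 and 8, which came almost wholly from 1 library each, the log2 ratios were 0.21 (−0.51 to 1.03) and −0.55 (−1.26 to 0.07). *Olig2* had 141 UMIs in WT and 321 in HET, or 24.1 and 40.7 CPM (log2 0.75, 0.46 to 1.05), and its ratio was 0.65 without finer cluster 21. In subcluster 2, with like numbers of nuclei from both libraries, its ratio was 0.35 (−0.24 to 0.96, 43 and 58 UMIs), within counting error, and in the rest of subcluster 7 it was 0.84 (0.07 to 1.70). Over both libraries *Olig2* was at 18.1 CPM in subcluster 2, 49.1 CPM in subcluster 6, which was mostly HET, and 30.9 CPM in subcluster 8, which was mostly WT. *Bcas1* was at 578 and 679 CPM (0.23, 0.17 to 0.29) and *Enpp6* at 249 and 226 CPM (−0.14, −0.24 to −0.04). Within subcluster 2, where *Enpp6* was highest, its ratio was 0.11 (−0.01 to 0.22), so that the lower level over the whole cluster did not hold in the nuclei with most of its UMIs.

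*Gpr17* had 26 WT and 70 HET UMIs in the oligo cluster (4.45 and 8.87 CPM, log2 1.00, 0.33 to 1.70) and *Sox6* 140 and 290 UMIs (0.62, 0.32 to 0.92). *Lims2*, which overlaps *Gpr17* on the other strand, was also higher in HET there (0.91). Without finer cluster 21, *Gpr17* was at 0.63 (−0.25 to 1.56) and *Sox6* at 0.08 (−0.31 to 0.47). *Ptprz1* was at 0.28 (0.04 to 0.53) in the cluster and at 0.09 (−0.17 to 0.35) without that group. *Pdgfra* (63 and 64 UMIs), *Cspg4* (50 and 73) and *Vcan* (92 and 140) did not differ beyond counting error. Of the 10 genes, 7 were higher and 3 lower in HET, with a median of 0.20 (all genes −0.10, with 41.2% higher). Inside the subclusters the median was −0.22 in subcluster 2, −0.29 in 6 and −0.27 in 8, and 0.03 in subcluster 7 without finer cluster 21, over the 7 to 9 genes with enough UMIs in each. Past 1.5-fold were *Sox6*, *Gpr17* and *Olig2*, all higher, beside 10.5% of all genes higher and 15.2% lower. *Sox10*, at −0.58, lay just inside that limit.

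A handful of HET nuclei in the oligo cluster carried much of its precursor gene signal. The 5% of nuclei with the highest doublet scores in each library included 26 HET and 5 WT oligo nuclei. The 26 HET nuclei held 4.16% of the UMIs of the HET oligo nuclei, but 141 of the 290 *Sox6* UMIs, 77 of the 140 *Vcan* UMIs, 31 of the 64 *Pdgfra* UMIs and 117 of the 371 *Ptprz1* UMIs. Their precursor markers summed to 3632 CPM and their oligodendrocyte markers to 10221 CPM, where the other HET oligo nuclei had 626 and 14622 CPM. They were deep, with a median of 9717 UMIs against 2833 UMIs, and carried a median of 6 of the 10 genes against 2. The share of doublets among them was not tested. Without the high-score nuclei, the log2 ratios in the cluster were −0.16 for *Sox6*, −0.16 for *Ptprz1*, −0.88 for *Vcan* and −1.32 for *Pdgfra*, while *Gpr17* stood at 0.64, *Olig2* at 0.73 and *Sox10* at −0.57.

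In astrocytes, *Ptprz1* (0.29, 0.21 to 0.37) and *Sox6* (0.17, 0.07 to 0.27) were slightly higher in HET. *Pdgfra* had 34 WT and 14 HET UMIs (log2 −1.58, −2.59 to −0.64), *Cspg4* 22 and 11 (−1.30, −2.49 to −0.19) and *Sox10* 79 and 51 (−0.93, −1.47 to −0.41). Past 1.5-fold were these 3 lower genes and no higher gene, beside 18.4% of all genes lower and 8.38% higher. The oligodendrocyte markers summed to 2861 CPM in WT and 2613 CPM in HET astrocytes, and their part in these differences was not tested.

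The other genes of the lineage were read from the fixed lists over all nuclei, where 41.1% of all genes were higher in HET (median −0.09). Of the 20 precursor genes, 10 were higher and 10 lower in HET, with a median of −0.04, from *Lrrn1* (0.74, 3239 and 5077 UMIs) to *Sstr1* (−1.14, 110 and 47 UMIs). Of 21 committed and newly formed genes, 15 were higher and 6 lower, with a median of 0.18, from *Zfp488* (1.02, 54 and 103 UMIs), a factor of oligodendrocyte differentiation, to *Mycl* (−0.43). Of 20 mature genes, 13 were higher and 7 lower (median 0.15), from *Mobp* (1.18) to *Ptgds* (−0.79). Of 9 measured cell division genes, 2 were higher and 7 lower (median −0.35), from *Ccnb1* (0.28, −0.23 to 0.79) to *Aurkb* (−1.98, 46 and 11 UMIs).

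In the oligo cluster, 41.2% of all genes were higher in HET (median −0.10). Of 19 measured committed and newly formed genes, 15 were higher in HET there, with a median of 0.36, and 5 were past 1.5-fold and higher, beside 10.5% of all genes. The highest was *Bmp4* (9 and 29 UMIs, log2 1.26), a growth factor of newly committed cells, and the lowest *Nkx2-2* (252 and 248 UMIs, −0.46). Without finer cluster 21, the count was 10 of 17 with a median of 0.21, where 41.6% of all genes were higher. Of these, 1 (*Lims2*) was past 1.5-fold and higher, beside 10.4% of all genes. Of 16 precursor genes in the whole oligo cluster, 11 were higher (median 0.30), from *Tnr* (60.9 and 139 CPM, log2 1.19) to *Sox8* (108 and 55.8 CPM, −0.95), a relative of *Sox10*. *Tnr* had 356 WT and 1099 HET UMIs there, and finer cluster 21 held 801 over both libraries. With that group left out, *Megf11* was highest (0.67, 0.27 to 1.07) and *Sox8* still lowest. The 26 high-score HET nuclei had precursor markers at 3632 CPM, against 626 CPM in the other HET oligo nuclei. Their part in this count was not tested. Of 20 mature genes in the whole cluster, 14 were lower (median −0.17), where most of all genes were also lower. They ran from *Mobp* (634 and 1065 CPM, 0.75) to *Ptgds* (−0.77).

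Signalling genes of the lineage showed no common direction. Of 30 signalling genes, 14 were higher and 16 lower over all nuclei (median −0.11), beside 41.1% of all genes higher. They ran from *Tcf7l2* (0.61) to *Pdgfb* (−1.03, 825 and 381 UMIs), a ligand of the PDGF receptors. In the oligo cluster, 12 were higher and 18 lower (median −0.15), beside 41.2% of all genes higher. *Pdgfc*, another ligand of PDGF receptor alpha, had 80 WT and 319 HET UMIs there (log2 1.56, 1.20 to 1.93). Their highest levels were spread over the groups, with 8 of the 30 in endo subcluster 17, among them *Pdgfb*, and 4 in finer cluster 21, *Erbb3*, *Erbb4*, *Fgfr2* and *Tcf7l2*. The share of all genes highest in these groups was not taken. The cell division list had 4 measured genes in the oligo cluster, with *Nusap1* (0.06) highest and *Mki67* (22 and 11 UMIs, −1.43) lowest.

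The likeness of patterns was taken over 26 points, 13 groups of nuclei in each library, as Pearson correlations of log2(CPM + 1), which share libraries and depth and are a description. *Bcas1* was most like *Sox10* (r = 0.960), and *Sox10* was closest to *Gjc3* (0.971), a gap junction gene of oligodendrocytes that came next for *Bcas1* (0.956). *Mag* (0.947) and *Phldb1* (0.946) followed for *Bcas1* and *Sox10*. *Olig2* was most like *Cnp* (0.876), *Cmtm5* (0.845) and *Tmem88b* (0.829). *Enpp6* was most like *Cpm* (0.913), *Otud7b* (0.90) and *Tspan2* (0.896). *Cspg4* was most like *Myl9* (0.889), a smooth muscle myosin light chain, *Aif1l* (0.877) and *Casq2* (0.876). *Ptprz1* was most like *Bbox1* (0.891), *Fam227b* (0.840) and *Rfx4* (0.824), and *Sox6* like *Gm45025* (0.910), which lies inside *Sox6* on the other strand, *Kank1* (0.890) and *Fgfr3* (0.886). *Pdgfra* was closest to *Nudt4* (0.833), *Selenbp1* (0.825) and *Nnat* (0.811). *Gpr17* was closest to *Elmod2* (0.80), *Gramd1c* (0.798) and *Iqck* (0.790), and *Vcan* to *Ext1* (0.749), *Gm9725* (0.744) and *9330151L19Rik* (0.713). Subcluster 32, with 3 HET nuclei, entered only as part of epend.1.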

How the data were processed

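Nuclei of flash-frozen brainstem from 1 WT and 1 HET mouse were profiled by droplet single-nucleus RNA sequencing. The authors aligned the reads to mm10 with Cell Ranger, filtered and clustered the nuclei with Seurat (version 4.1), and deposited UMI counts per gene and nucleus without normalization. They also deposited cluster names, cluster numbers at 2 resolutions (0.8 and 1.1), reference labels, a doublet score, and the percent of mitochondrial and ribosomal counts per nucleus. No nucleus was removed here, and doublets were handled by leaving out the 5% of nuclei of each library with the highest score as an alternative. The lowest score left out this way was 0.333 in WT and 0.304 in HET.

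UMIs were summed per gene, group and library and divided by the group's total (CPM). Levels have exact Poisson, shares exact Clopper-Pearson and ratios exact conditional binomial intervals, all at 95%. A count of 0 allows up to 3 counts. With 1 library per genotype no test across genes was run and no p-value is given. A difference was counted when past 1.5-fold, among genes with at least 20 UMIs in the group. The ratio calculation was checked on simulated counts. Promoters came from RefSeq (GRCm38.p6) and positions from a GENCODE annotation of the same build. No protein sequence was used here. Python 3.11.15, numpy 2.4.6, pandas 2.3.3 and scipy 1.17.1 were used.

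The text names the 10 genes, the highest and lowest log2 ratio of each list, and the 3 genes most like each of the 10 by Pearson correlation. Other named genes, and the high-score nuclei, were chosen after their values were seen. The 10 genes and the lists were chosen with earlier results of these data known.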

Additional observations from a re-analysis of the deposited data

Results flagged for a closer look

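For 8 of the 10 genes, the HET over WT ratio lay outside counting error with one sign in one cell group and with the other sign in another, over 11 groups compared. Of all genes with at least 200 UMIs, 11.4% met the same rule, which genes with more UMIs meet more easily. With 1 library per genotype these differences were not tested.

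*Sox10* was lower in HET in the oligo cluster (log2 −0.58) and higher in neuron.1 (0.57), a difference of 1.15. *Enpp6* showed the same pattern, at −0.14 in the oligo cluster and 0.32 in neuron.1, a difference of 0.46. In neuron.1, *Sox10* was at 0.608% (WT) and 1.34% (HET) and *Enpp6* at 1.60% and 2.21% of the oligo level, beside 3.49% and 3.52% for *Mbp*, and the part of free RNA was not tested. *Bcas1* was higher in the oligo cluster (0.23) and lower in astrocytes (−0.26), a difference of 0.491.

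*Olig2* was higher in the oligo cluster (0.75) and lower in the nuclei of the microglia cluster with other labels (−1.69, 13 and 5 UMIs), a difference of 2.45. That count is under the minimum of 20 UMIs used for the counts above. Of the UMIs, 3 of the 13 in WT and 3 of the 5 in HET were in nuclei with doublet scores in the top 5%. *Vcan* was higher in the other-labelled nuclei of the microglia cluster (2.05) and lower in epend.1 (−4.95), a difference of 7.01. Without 16 HET nuclei with high doublet scores, which held 27 of the 31 HET UMIs, the 2.05 became −0.55. *Gpr17* was at 1.00 in the oligo cluster and −1.97 in epend.1, a difference of 2.97. *Ptprz1* was at 0.30 in neuron.1 and −1.45 in epend.1, a difference of 1.75, and it was higher in HET in 8 of the 11 groups. *Sox6* was at 0.17 in astrocytes and −0.45 in epend.1, a difference of 0.62. The cluster epend.1 holds the 47 WT and 3 HET nuclei of subcluster 32, whose part in these 4 values was not tested. Subcluster 32 held 114 *Vcan*, 23 *Gpr17*, 167 *Ptprz1* and 116 *Sox6* UMIs. The other epend.1 nuclei, subcluster 23, held 4, 2, 169 and 300. In subcluster 23 alone, 3 of the 10 genes had at least 20 UMIs, with a median log2 ratio of −0.32, against −3.49 over 9 genes in epend.1.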

How the results depend on the processing

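The log2 ratios of the 10 genes were recomputed under alternative scalings, filters and sets of nuclei. Of 111 values under alternatives whose ratio as reported lay outside counting error, 107 kept their sign and 4 changed it. Giving every cluster the same weight turned *Enpp6* over all nuclei to −0.073. Leaving out the highest doublet scores turned *Ptprz1* and *Sox6* in the oligo cluster to −0.16 each and *Vcan* in the microglia cluster's other labels to −0.55. The median over the 10 genes for all nuclei moved to 0.40 with the median of all genes set to 0 and to 0.055 with equal cluster weights. Without the high doublet scores it moved to −0.15 in the oligo cluster and to −1.05 in the other-labelled nuclei of the microglia cluster. The share with both *Pdgfra* and *Cspg4* moved in WT to 0.113% (thinned to 1000 UMIs), 0.659% (4 of the 5 precursor genes) and 0.119% (without subcluster 32), and in HET to 0.0108% (thinned), 0.310% (4 of 5) and 0.0583% (without high doublet scores). The causes were not tested. The alternatives that leave out subcluster 32 or finer cluster 21, and those of the cluster shares, were chosen after seeing the data. No paired analysis was possible because each genotype has 1 library. Counting error limits *Gpr17*, *Cspg4* and *Pdgfra* most, and animal-to-animal spread is unknown.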

Other observations

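Genes annotated on the strand opposite to 4 of the 10 genes were higher in HET over all nuclei. Of all genes, 41.1% were higher there, and 10.9% were higher past 1.5-fold. These opposite-strand genes were looked at after their values were seen. The oligo cluster was 19.1% of the WT and 26.4% of the HET nuclei, and its part in the ratios over all nuclei was not tested. *Bcas1os2*, opposite *Bcas1*, had 1570 WT and 4082 HET UMIs (log2 1.47, 1.38 to 1.55), and in the oligo cluster it was at 225 and 446 CPM (0.99, 0.90 to 1.08), where *Bcas1* itself had a ratio of 0.23. *Gm45600*, opposite *Enpp6*, had 120 and 381 UMIs (1.75, 1.45 to 2.06), with 1.26 in the oligo cluster, where *Enpp6* was at −0.14. *Gm4117*, opposite *Vcan*, had 1767 and 2769 UMIs (0.74, 0.65 to 0.82), and *Gm45025*, opposite *Sox6*, 233 and 339 UMIs (0.63, 0.38 to 0.88). *Lims2*, opposite *Gpr17* (0.19, −0.01 to 0.38), and *Sox6os*, also opposite *Sox6* (1.01, −0.16 to 2.28), did not differ beyond counting error over all nuclei. Further genes opposite *Bcas1* and *Enpp6*, *Bcas1os1* (0.92, 0.04 to 1.84) and *4930579M01Rik* (0.93, 0.35 to 1.53), were higher. Reads of a gene and its antisense partner can be told apart only where the counting used strand, which the methods do not name.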
